A study of Mus musculus with 6 samples.

Results

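The wild-type retina was profiled on 3 of the 6 arrays of the series, and its transcripts are described here by how bright they were, which cell types they mark and how far the arrays differed. The mice were BALB/c AJ, carried both wild-type alleles (wt/wt) and were 40 days old. Retinas were separated from the retinal pigment epithelium before total RNA was purified, and biotin-labelled cRNA was hybridised to one-colour Affymetrix arrays. The other 3 arrays carry a knockout label and enter no result. The members are the 3 arrays labelled wild type, called replicates 1, 2 and 3, and each of 18193 genes was represented by the brightest of its probe sets that name a single gene. The labels leave out whether the replicates were separate animals or pooled tissue, so the spread between them may be technical. A group of 3 arrays has no contrast to test, and every value is a description.

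The retina turns light into nerve signals in rods and cones, whose outer segments hold stacks of membrane packed with visual pigment. Light activates the pigment, which activates the G protein transducin. Transducin releases a cGMP phosphodiesterase from inhibition, cGMP falls and cation channels close. Arrestin and the guanylate cyclase activating proteins end the response and reset the cell. Rods greatly outnumber cones in the mouse. Bipolar, horizontal and amacrine cells process the signal, ganglion cells send it to the brain, and Müller glia span the tissue.

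Replicate 2 stood apart from the other arrays in a small set of genes. Median signals of the arrays ran from 5.77 to 5.80 on the log2 scale. RMA brings them close by equalising the arrays' distributions, so they do not measure likeness. The pairwise Pearson correlations across probe sets were 0.994 to 0.996, a description that shares the probe effects. The highest of 27 Bacillus control probe sets, which match no mouse transcript, read 4.18 in replicates 1 and 3 and 4.60 in replicate 2. Above that control lay 14150, 13162 and 14006 genes in replicates 1, 2 and 3, fewest in replicate 2, where the control was highest. A gene was called above background when it exceeded that control of its own array on all 3 arrays, which held for 13141 of 18193 genes (72.2%). Replicate 2 read lens genes, Egr1 and Fos far above the other arrays and Xist far below, so the medians of the lists it raised and the count of widely spread genes are given with and without it. Precision is limited by there being 3 arrays. Signals of different probe sets depend on their probes as well as on the RNA, so a rank is a rank of signal and not of molecule number. Because whole tissue was used, fewer cells of a type and less RNA per cell cannot be told apart. As measures of RNA quality, 3′ and 5′ probe sets of control genes were compared in replicates 1, 2 and 3. The 3′ signal exceeded the 5′ signal by 1.01, 1.17 and 1.24 for the actin control. For the Gapdh control the same difference was -0.01, 0.05 and -0.03. The 3′ probe set for 18S ribosomal RNA read 7.94, 8.72 and 7.60, highest in replicate 2.

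Photoreceptor transcripts led the ranking. The brightest gene was Sag, which encodes rod arrestin, and the next was Gnat1, the alpha subunit of rod transducin. Sag read 14.47, 14.45 and 14.51 in replicates 1, 2 and 3, a mean of 14.48 ± 0.03 (log2, SD, n = 3). Gnat1 read 14.17, 14.16 and 14.14 (14.16 ± 0.01, SD, n = 3). The 3 Sag signals lay above the 3 Gnat1 signals without overlap. Recoverin (Rcvrn), a calcium sensor of photoreceptors, ranked 7th with 13.63, 13.55 and 13.77 (13.65 ± 0.11, SD, n = 3). Recoverin was highest in replicate 3, and its values overlapped those of Guca1a and Nrl just above it, so the order among these genes does not exceed their spread. The 3 markers that define the labelled tissue here were thus all near the top. Each had a single probe set.

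How far a rank depends on the probe set was read from genes with several. Of the 9010 genes with more than 1 probe set, the brightest and dimmest probe sets differed by a median of 2.01 log2 units. Among the 100 brightest genes, 63 had several probe sets and 40 of them differed by more than 2 log2 units. Tpt1, a translationally controlled growth protein, read 13.49 with its brightest probe set and 3.30 with its dimmest. Gaps of this size exceed the differences between arrays, so the order of single genes is tied to the probe sets that represent them.

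**Figure D1:**
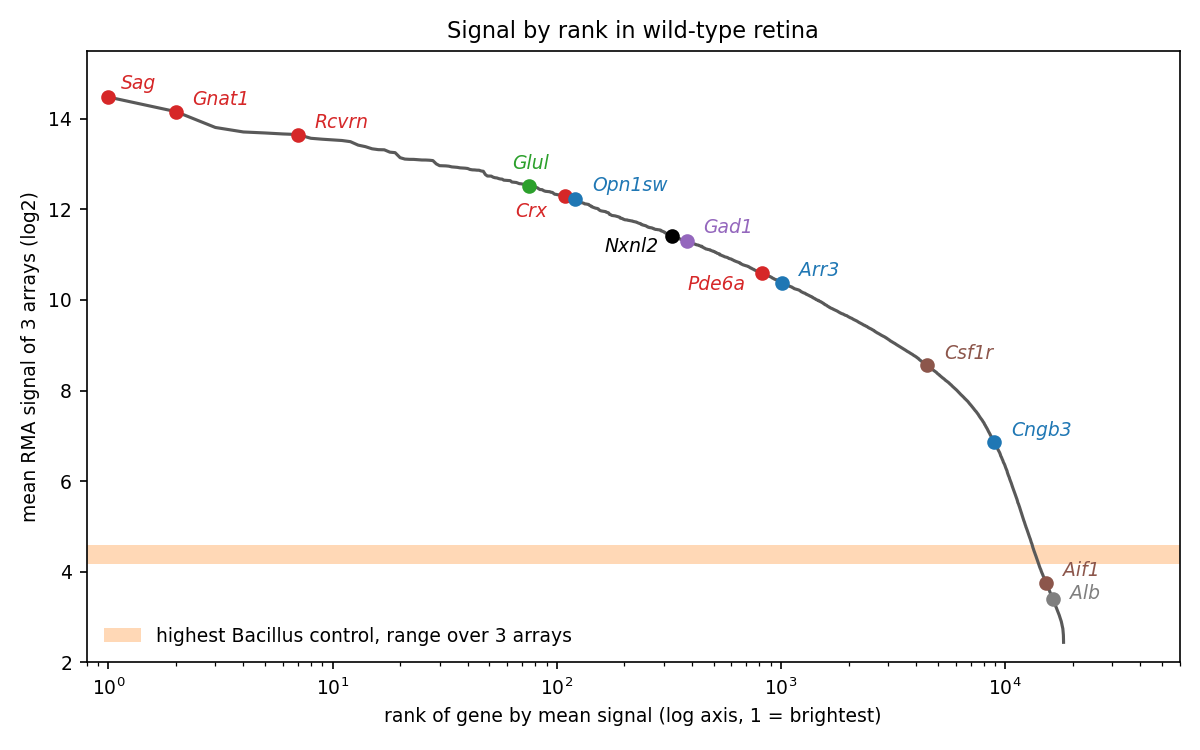
Mean RMA signal of the 3 wild-type arrays on the log2 scale against the rank of each gene, with the rank on a log axis. Labelled points mark photoreceptor, cone, Müller glia, amacrine and microglia genes, and the orange band spans the highest Bacillus control over the 3 arrays, 4.18 to 4.60. Sag, Gnat1 and Rcvrn sit at the bright end, while the microglial gene Aif1 and the liver gene Alb lie below the band.

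Of the 10 brightest genes, 8 were in the lists of genes made in rods or in rods and cones. These lists hold 36 measured genes and the cone list 11, and together 21 of their 47 measured members were among the 100 brightest, a set that takes 0.55% of all genes. The inhibitory phosphodiesterase subunit Pde6g read 13.71, 13.69 and 13.73, and the rod transcription factor Nrl read 13.68, 13.69 and 13.69. The catalytic subunit Pde6b read 13.49, 13.58 and 13.53. These rod genes varied by less than 0.1 log2 unit between arrays. The remaining members of the top 10 were Gnb1, the transducin beta subunit of rods, which read 13.79, 13.82 and 13.81, and Hmgn1, a nucleosome-binding protein, which read 13.53, 13.58 and 13.53.

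Among the 30 brightest genes, 14 were photoreceptor genes of these lists. Guca1a and Guca1b, activators of retinal guanylate cyclase, had means of 13.66 and 13.32. Unc119, which carries lipid-modified transducin, read 13.57. Phosducin (Pdc), which binds the beta and gamma subunits of transducin, read 13.42, and the outer-segment membrane proteins Prom1 and Rom1 read 13.38 and 13.25. Rbp3, which carries retinoids between photoreceptors and the pigment epithelium, read 13.25, 13.18 and 13.52, and Aipl1, a chaperone of the phosphodiesterase, read 13.07, 13.14 and 13.21. Both were highest in replicate 3.

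Other genes of the 30 brightest serve every cell. They included the translation factor Eef1a1 (13.52), the ribosomal gene Rps29 (13.34), the respiratory subunits Cox6a1 (13.26) and Atp5b (13.11), the mitochondrially encoded ND5 (13.10), the glycolytic enzyme Aldoa (13.10), the iron store Fth1 (13.09) and the protease inhibitor Cst3 (13.08). The synaptic protein gene Snap25 read 13.09. Of the 100 brightest, 13 were genes of cytosolic ribosomal proteins, 2 were in other cell-type lists (the Müller glia gene Glul and the transthyretin gene Ttr), and 63 were in no list. The 100 brightest genes took 11.9 to 12.0% of the summed linear signal over genes on each array and the 1000 brightest 43.5 to 43.8%. RMA also brings these shares close between arrays. Of the 100 brightest, 89 were in the top 100 of each array taken alone. Probe sets that name no single gene also reached this range: 38 of the 100 brightest non-control probe sets did not name 1 gene.

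Rod genes were bright as a list. All 13 measured rod genes of 15 listed were above background, against 72.2% of all genes. Their median was 12.84 against 6.79 over all genes, and 12 of the 13 had a mean above 10, as did 7.95% of all genes. The transducin gamma subunit Gngt1 read 12.76, 12.86 and 12.90. The cGMP-gated channel subunits were dimmer, Cnga1 at 11.96, 11.98 and 11.98 and Cngb1 at 11.01, 10.94 and 11.14. The second catalytic subunit Pde6a read 10.38, 10.62 and 10.76. The sodium-calcium exchanger Slc24a1 read 12.49, 12.54 and 12.67. Replicate 3 was highest for 9 of the 13, against 39.8% of all genes. With arrays centred on the 75th percentile this was 6 of 13, against 32.8%. Centred on the median it was 9 of 13, against 44.2%, and quantile-normalized again 8 of 13, against 38.2%. The exception to the bright range was Samd7, a rod chromatin repressor, at 9.33, 9.81 and 9.75.

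The promoters of the brightest rod and photoreceptor genes are shown because the rod program is set by transcription factors that act there. Crx, a homeodomain factor of photoreceptors, favours the letters TAATCC, which were searched on both strands in the 250 bases before the start of each gene, with capitals marking the match (GGATTA on the opposite strand) and each promoter counted once. The sequences are from RefSeq (GRCm38.p6), and of the 4 brightest listed genes with an entry, Sag (chr1:87803430-87803679, plus strand) and Guca1a (chr17:47400607-47400856, minus strand) held 1 match each, while Nrl and Unc119 held none.
Sag: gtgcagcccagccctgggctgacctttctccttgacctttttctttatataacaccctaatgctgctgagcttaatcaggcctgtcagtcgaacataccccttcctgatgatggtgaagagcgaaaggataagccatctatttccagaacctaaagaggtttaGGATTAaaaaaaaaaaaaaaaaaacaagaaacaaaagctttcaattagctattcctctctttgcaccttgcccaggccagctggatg
Guca1a: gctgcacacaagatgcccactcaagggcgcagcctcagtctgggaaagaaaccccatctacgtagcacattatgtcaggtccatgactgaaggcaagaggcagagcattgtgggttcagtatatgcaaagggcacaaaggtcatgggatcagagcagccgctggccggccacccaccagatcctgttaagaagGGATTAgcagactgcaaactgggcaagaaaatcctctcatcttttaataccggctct
The match in Sag lies 82 to 87 bases before the start and that in Guca1a 52 to 57 bases before it. These letters were present in 11 of the 29 promoters of rod, or rod and cone, genes with an entry (37.9%), in 10 of 78 promoters of the 100 brightest genes (12.8%) and in 5.51% of the 14452 promoters of measured genes. Over all 27025 promoters of the table the share was 6.38%. A match is a description of letters in this window, and no test was made. Crx itself read 12.31, 12.25 and 12.31.

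Genes shared by rods and cones had a median signal close to that of the rod list. All 23 measured of 25 listed were above background, against 72.2% of all genes. Their median was 12.86, and 18 had a mean above 10. Prph2, which shapes the outer-segment disc rim, read 12.84, 12.77 and 13.09. Abca4, the retinoid transporter of the disc, read 12.11, 12.13 and 12.20, and Rdh12, a retinol dehydrogenase of the inner segment, read 12.17, 12.09 and 12.14. The Abca4 and Rdh12 values overlap. Rgs9, which speeds the shut-off of transducin, read 9.62, 10.44 and 9.55, so replicate 2 was the high one. The lowest members were the kinase gene Grk1 at 7.86, 7.65 and 8.56 and the guanylate cyclase Gucy2e at 5.74, 5.42 and 6.46, both highest in replicate 3.

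Cone genes gave lower signals than rod genes. Of 11 measured of 12 listed, 10 were above background, against 72.2% of all genes. A mean above 10 was reached by 6, but none was among the 100 brightest. The list median was 10.01. The short-wavelength opsin Opn1sw was the brightest at 12.39, 12.04 and 12.22, and the medium-wavelength opsin Opn1mw read 9.91, 9.85 and 9.92. The 3 values of the first lie above the 3 values of the second without overlap. The dimmer Opn1sw probe set read 7.38, 6.77 and 7.34, below Opn1mw, so the order of the opsins rests on the probe set chosen. Cone transducin alpha (Gnat2) read 10.93, 10.75 and 10.77, cone arrestin (Arr3) 10.50, 10.45 and 10.20, and the cone phosphodiesterase Pde6c had a mean of 8.80 ± 0.18 (SD, n = 3). The inhibitory subunit Pde6h reached 11.54, 11.31 and 11.26. The channel subunit Cngb3 read 6.81, 6.78 and 7.01. Gngt2, a cone transducin gamma subunit, read 4.72, 4.45 and 4.54 and was not above background on every array.

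**Figure D2:**
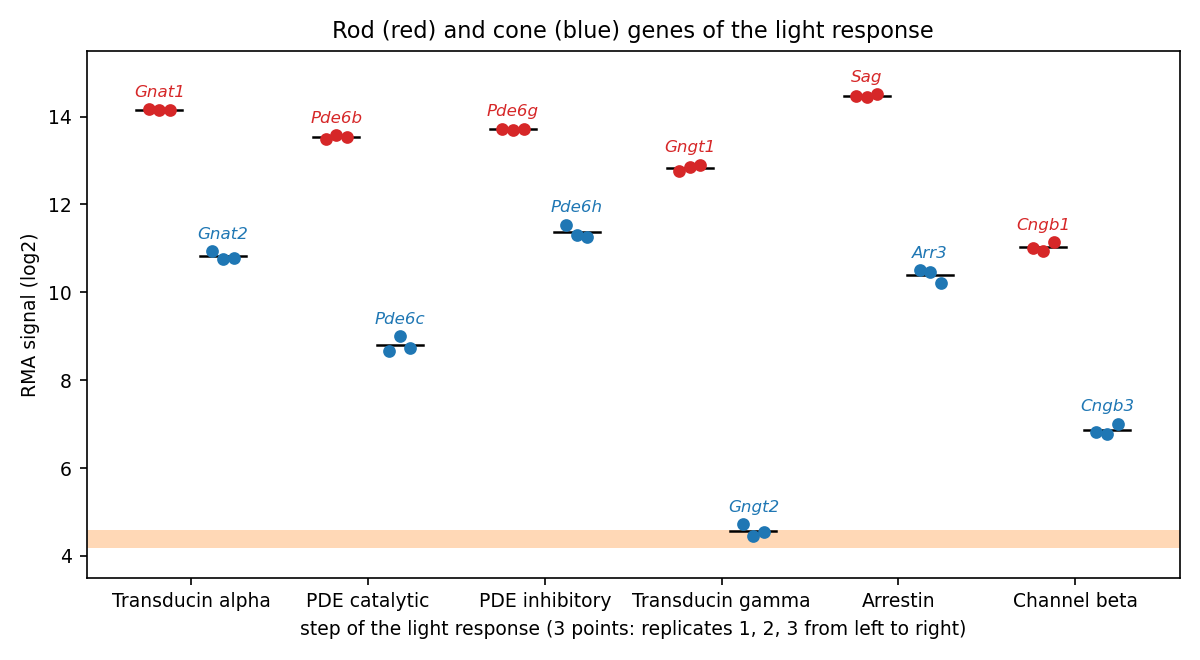
RMA signal (log2) of paired rod (red) and cone (blue) genes at 6 steps of the light response, with 1 point for each of the 3 wild-type arrays (replicates 1, 2 and 3 from left to right) and a black line at the mean. Every rod gene lies above its cone counterpart without overlap, from Sag at 14.48 against Arr3 at 10.38 to Cngb1 at 11.03 against Cngb3 at 6.87, and the orange band spans the highest Bacillus control.

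Neurons of the inner retina were present at moderate signals. The bipolar list had 17 of 18 measured genes above background and a median of 9.13, and the amacrine list 13 of 13 and 8.57. Of all genes, 72.2% were above background. Pcp2, a G-protein regulator of rod bipolar cells, read 11.90, 11.89 and 11.77, and the kinase Prkca, a marker of the same cells, read 11.54, 11.51 and 11.59. Both were steady between arrays. The bipolar channel Trpm1 read only 6.37, 6.68 and 6.21. In amacrine cells, the calcium-binding protein gene Calb2 read 11.67, 11.52 and 11.78, and the GABA-synthesising enzyme Gad1 read 11.31, 11.19 and 11.38. Markers of single amacrine classes differed: Vip, a neuropeptide, read 7.62, 7.25 and 7.71, above the median of all genes, while Th of dopaminergic cells read 6.08, 5.83 and 6.06 and Chat of cholinergic cells 4.61, 4.65 and 4.65.

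Horizontal and ganglion cell genes gave lower medians. The 6 measured horizontal genes had a median of 6.60, led by Calb1 at 9.85, 9.72 and 9.87. The ganglion list had 15 of 16 genes above background, against 72.2% of all genes, and a median of 8.12. Neurofilament light chain (Nefl) read 11.44, 11.51 and 11.66, and the vesicular glutamate transporter Slc17a6 read 9.08, 8.90 and 9.50. Replicate 3 was the high array for both. Melanopsin (Opn4), the pigment of intrinsically photosensitive ganglion cells, read 6.01, 5.94 and 5.75, while the ganglion factor Pou4f3 was not above background.

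Müller glia genes were the brightest non-neuronal list. All 17 measured genes were above background, against 72.2% of all genes, with a median of 9.89 and 8 above 10. Glutamine synthetase (Glul), which recycles transmitter, read 12.54, 12.59 and 12.44, and Rlbp1, which binds retinal, read 11.62, 11.63 and 11.47. Both were lowest in replicate 3, but the list was not: replicate 3 was its highest array for 8 of 17 genes and its lowest for 6, and the glutamate transporter Slc1a3 read 8.60, 8.70 and 9.01. Astrocyte genes were dim, with a median of 6.35, and Gfap, which rises in stressed glia, read 5.65, 6.27 and 6.29. Microglia genes had a median of 5.69 and vessel genes one of 5.13, both below the median of all genes. The microglial receptor Csf1r read 8.52, 8.65 and 8.49, but Aif1 and Itgam were not above background. Among vessel genes the receptor Kdr read 9.35, 9.36 and 9.37, while Pecam1, Tek, Abcb1a, Vwf and Tie1 were not above background.

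**Figure D3:**
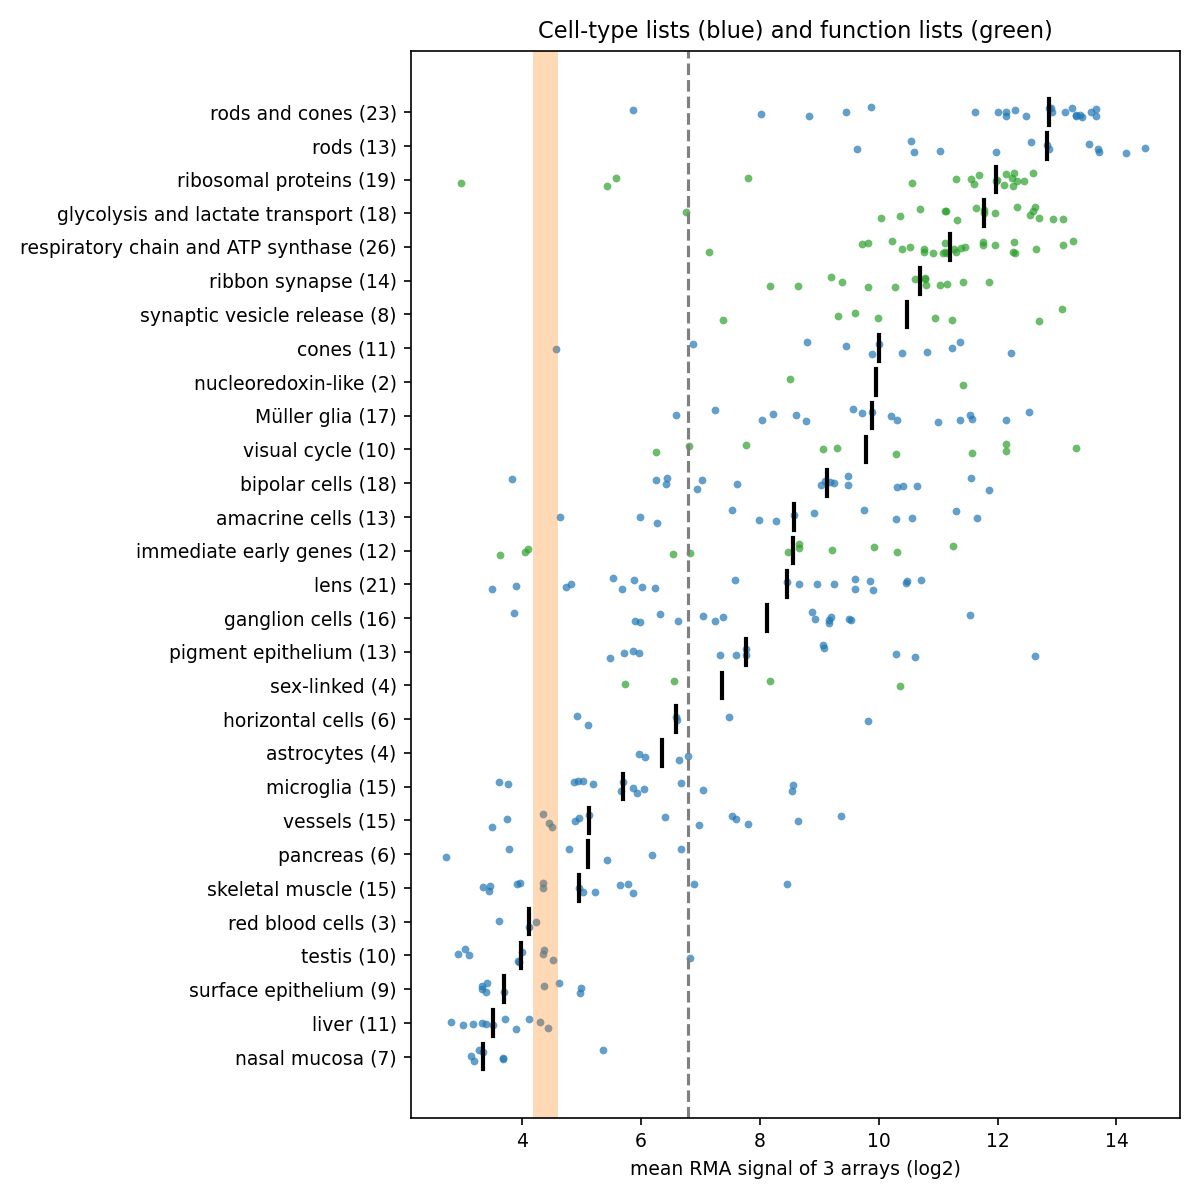
Mean RMA signal (log2) of the measured genes in each cell-type list (blue) and function list (green), 1 point per gene, with a black bar at the list median and the number of measured genes in brackets. The dashed line is the median of all genes, 6.79, and the orange band spans the highest Bacillus control; the rod list (median 12.84) and the list of rods and cones (12.86) stand highest and the nasal mucosa list (3.35) lowest.

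Genes of energy supply were bright. The glycolysis and lactate transport list had all 18 measured genes above background, against 72.2% of all genes. Its median was 11.77, and 17 had a mean above 10. Aldoa, Pkm, Ldha, Pgk1 and Tpi1 had means between 12.60 and 13.10. Hexokinase 2 (Hk2), which starts glycolysis in photoreceptors, read 10.91, 11.35 and 11.12, and the glucose transporter Slc2a1 read 10.58, 10.86 and 10.66. Basigin (Bsg), the partner protein of the lactate transporter Slc16a1, read 11.94, 11.83 and 12.07. The other lactate transporter, Slc16a3, was dim at 6.47, 6.51 and 7.28. The respiratory chain list followed, with 26 of 26 above background and a median of 11.21. Ribosomal protein genes had a median of 11.97, but members ranged widely, from Rps24 at 12.60 to Rps16 at 2.97, which was not above background. With probe sets left out whose identifiers carry a suffix (_s, _x or _a) for matches beyond 1 transcript, the median percentile of the ribosomal list changed from 99.1 to 60.1.

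All measured synapse and visual cycle genes were also above background, against 72.2% of all genes. All 14 ribbon synapse genes were above background with a median of 10.69, led by Cplx4, a complexin of photoreceptor ribbon terminals, at 11.83, 11.84 and 11.91. Ctbp2, which gives rise to the ribbon protein RIBEYE, read 11.18, 11.18 and 11.10. The glutamate transporter Slc17a7, which fills photoreceptor and bipolar vesicles, read 9.50, 9.48 and 10.50, higher in replicate 3 by about 1 log2 unit. Genes of the visual cycle, which renews the pigment's retinal, were above background in 10 of 10 with a median of 9.79, and their median percentile was 89.6 with replicate 2 and 88.9 without it. Of the 8 measured genes of vesicle release, Snap25 and Syt1 were the brightest at 13.09 and 12.70. Nxnl2, a thioredoxin-like gene expressed in photoreceptors, read 11.38, 11.45 and 11.42. Its relative Nxnl1, which encodes rod-derived cone viability factor, read 8.45, 8.49 and 8.58. The dimmer probe set of Nxnl2 read 8.36, 8.81 and 8.37, and that of Nxnl1 6.33, 6.15 and 6.12. The values of the dimmer Nxnl2 probe set overlap those of the brighter Nxnl1 probe set. Both the size of the difference between these genes and their order thus rest on the probe sets chosen.

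Genes of tissues outside the retina were mostly dim, while genes of the pigment epithelium and lens were not. Against 72.2% of all genes, liver genes were above background in 0 of 11, red blood cell genes in 0 of 3, surface epithelium genes in 3 of 9, and nasal mucosa genes in 1 of 7 (Omp). Pancreas genes were above background in 4 of 6, a share near that of all genes, with a median of 5.10. Skeletal muscle genes were above background in 8 of 15, and replicate 2 was the highest array for 11 of the 15, against 27.5% of all genes, with a median of 0.25 log2 units above the others. The muscle list's median percentile was 31.7 with replicate 2 and 27.8 without it. Testis genes were above background in 1 of 10, the protamine Prm1 at 6.92, 6.86 and 6.68. The dimmer Prm1 probe sets had means of 2.71 and 2.62, below the control, so this call rests on the probe set chosen. Pigment epithelium genes were above background in 13 of 13 although the tissue was removed at dissection. Transthyretin (Ttr) read 12.52, 12.99 and 12.39, and the retinoid isomerase Rpe65 read 10.15, 10.82 and 9.90. Per-array medians of the list were 7.58, 8.26 and 7.33, all above the median of all genes. Replicate 2 was highest for 11 of the 13, with a median of 0.74 log2 units above the other arrays. Without replicate 2 the list's median percentile was 56.8, against 62.6 with it. The part of pigment epithelium in these values was not tested.

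Most genes differed little between the 3 arrays. The median SD of genes above background was 0.10 log2 units, and 95.6% of genes whose mean exceeded that of the control spanned less than 0.5 log2 units. The median SD was 0.11 for genes with means under 4, 0.12 between 4 and 6 and 0.07 above 12. Spread was thus smallest among the brightest genes, and the reason was not tested. Over all genes, 62 (0.341%) spanned more than 1 log2 unit, and 59 of these had a mean above that of the highest control. Replicate 2 was the highest array for 47 of the 59, and without replicate 2 only 9 genes spanned more than 1. Without replicate 3 the number was 36. Among the 1000 brightest genes the steadiest included Rbbp7, a histone-binding protein, with an SD of 0.004.

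**Figure D4:**
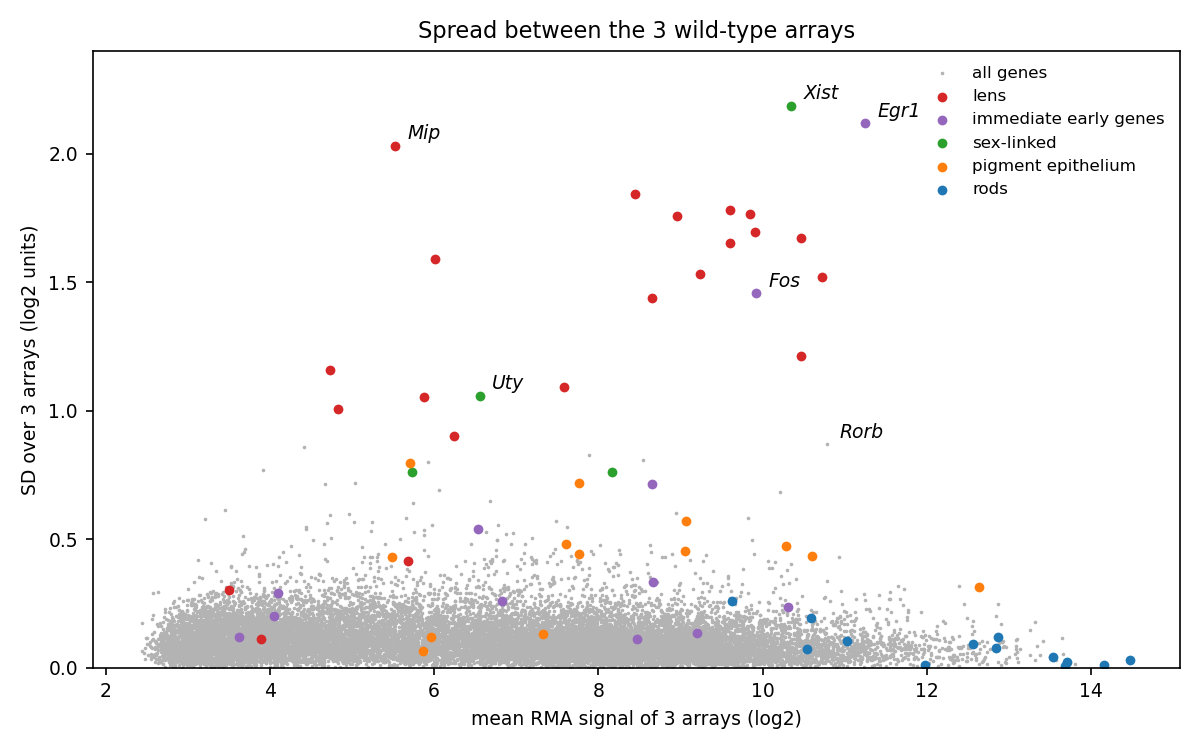
SD over the 3 wild-type arrays (log2 units) against mean RMA signal (log2) for every gene in grey, with genes of 5 lists in colour. Most genes lie near the median SD of 0.10, rod genes lie low, and Xist, Egr1, Mip and Fos stand far above.

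Lens genes separated replicate 2 from the other arrays. Lens crystallins are soluble proteins that fill the fibre cells, and the alpha and beta-gamma families also have members active in the retina. Of the 21 measured lens genes, replicate 2 was more than 1 log2 unit above the mean of the other arrays for 18, against 0.203% of all genes, with a median difference of 2.63. It was the highest array for 20 of the 21, the exception being Gja3 by its brighter probe set (4.02, 3.88 and 3.79). The dimmer Gja3 probe set read 3.03, 4.67 and 2.95, highest in replicate 2 and above the control there only, so the exception rests on the probe set chosen. Mip, the water channel of lens fibres, read 4.48, 7.86 and 4.23, and alpha-A crystallin (Cryaa) read 9.83, 12.47 and 9.86. Cryba4 read 7.51, 10.57 and 7.27, and Crygs read 8.87, 11.88 and 8.79. In each case replicate 2 was far above and replicates 1 and 3 were close together. In replicates 1 and 3 most crystallins were still above background, with per-array list medians of 7.51 and 7.27 against 10.31 in replicate 2. Without replicate 2 the list's median percentile was 57.2, against 73.8 with it. The part of lens tissue in these values was not tested.

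The promoters of the lens genes that set replicate 2 apart are shown with the letters TGCTGA, the core of the element bound by large Maf factors, searched on both strands (TCAGCA on the opposite strand). The 4 lens genes with the largest difference and an entry were Mip, Cryba4, Cryba2 and Crygs, and Mip (chr10:128225560-128225809, plus strand) and Cryba4 (chr5:112252519-112252768, minus strand) are given.
Mip: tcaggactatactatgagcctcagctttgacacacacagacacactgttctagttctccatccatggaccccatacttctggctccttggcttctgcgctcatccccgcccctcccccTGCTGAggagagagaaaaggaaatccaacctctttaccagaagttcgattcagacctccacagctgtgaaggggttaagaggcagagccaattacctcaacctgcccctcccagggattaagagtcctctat
Cryba4: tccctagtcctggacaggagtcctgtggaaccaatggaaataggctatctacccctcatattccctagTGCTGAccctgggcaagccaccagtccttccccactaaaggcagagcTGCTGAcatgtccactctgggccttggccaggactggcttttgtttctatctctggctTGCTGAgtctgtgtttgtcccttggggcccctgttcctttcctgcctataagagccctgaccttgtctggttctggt
Mip held 1 match, 127 to 132 bases before the start, and Cryba4 held 3. The letters were present in 12 of 20 lens promoters with an entry (60.0%), in 7 of 29 promoters of rod, or rod and cone, genes (24.1%) and in 14.4% of promoters of measured genes. Over all promoters of the table the share was 15.8%. Presence of the letters says nothing of binding.

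Some immediate early and sex-linked genes also set replicate 2 apart. Egr1, a transcription factor induced within minutes of stimulation, read 9.45, 13.58 and 10.72, and Fos read 9.16, 11.59 and 8.99. Replicate 2 was more than 1 above the others for 3 of 12 measured members, against 0.203% of all genes, the third being Ier2. The other 9 were not, and Jun read 8.39, 8.42 and 8.60. The list's median percentile was 75.4 with replicate 2 and 72.2 without it. Xist, the RNA that coats the inactive X chromosome, read 11.53, 7.83 and 11.69, and its other probe sets showed the same order of replicate 2 below the rest. The Y-linked Eif2s3y read 7.72, 9.05 and 7.73, Uty 6.44, 7.67 and 5.56, and Kdm5d 5.21, 6.60 and 5.38. The median percentile of the 4 sex-linked genes was 58.4 with replicate 2 and 52.0 without it. The labels leave out the sex of the animals. Among genes whose mean exceeded that of the control, 35 were more than 1 above in replicate 2 and comprised 18 lens genes, 10 of other lists and 7 of none: Cd24a, Gja1, Dcn, Nid1, Nupr1, Fabp5 and S100a6.

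Replicates 1 and 3 differed in few genes. Over all genes, 9 (0.0495%) were more than 1 log2 unit apart, including Rorb, a nuclear receptor of photoreceptor and inner retinal development, at 11.26, 11.30 and 9.78. Smaller shifts were shared by lists. Replicate 3 was the highest array for 13 of 16 ganglion genes, 11 of 13 amacrine genes and 7 of 8 vesicle release genes, where 39.8% of all genes were highest there, and its median excess over replicate 1 was 0.21, 0.11 and 0.14 log2 units. These directions were the same with each array centred on its median or its 75th percentile, or quantile-normalized again. Ribosomal protein genes went the other way, with replicate 3 above replicate 1 for 3 of 19, against 51.5% of all genes, and a median difference of -0.14. These shifts are small, and the part of tissue composition in them was not tested. Replicate 3 also had 23 genes (0.126%) more than 1 log2 unit below the mean of the others, 16 of them lens genes, for which that mean holds the high value of replicate 2.

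**Figure D5:**
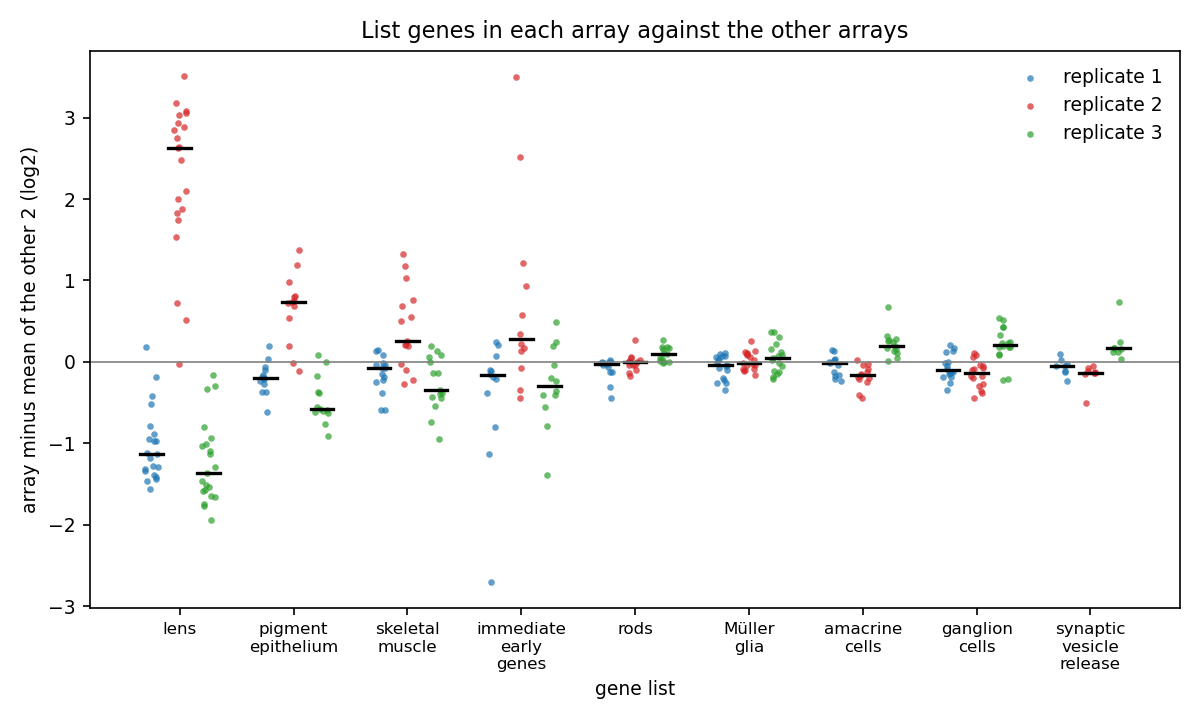
Difference of each wild-type array from the mean of the other arrays (log2 units) for the genes of 9 lists, 1 point per gene, coloured by replicate, with black bars at the medians. Lens genes lie far above zero in replicate 2 only (median 2.63), and ganglion, amacrine and vesicle release genes lie slightly above zero in replicate 3.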

How the data were processed

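Per the submitters' processing notes, RMA produced the log2 values that the authors deposited. The software, its version and the chip definition remain unknown, not given in the sources used here. Because RMA equalises the arrays' distributions, differences in total RNA are hidden. The log2 values were used unscaled, with pandas 2.3.3 and Python 3.11.15. Of 45101 probe sets, 64 controls were left out; 34945 name 1 gene, 932 several and 9160 none, and only the first kind was used. The brightest probe set by mean over the 3 wild-type arrays stood for each of 18193 genes, 18032 of which matched RefSeq. Background was the highest Bacillus control of each array. A total of 359 of 406 list names were measured. Named genes were the 30 brightest, the extremes of each list, and those with the widest or smallest spread; further list members are given for their role, chosen after their values were seen. The members and lists were chosen with earlier results of these data known. The procedure was tested on simulated data.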

Additional observations from a re-analysis of the deposited data

How the results depend on the processing

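The cause of each change was not tested. With the mean of a gene's probe sets, the dimmest probe set, or no probe sets of shared matching, in that order, the 100 brightest genes shared 57, 49 and 41 with the main ranking. In the same order the median percentile of rod genes (99.7) became 99.82, 99.84 and 99.60, of rod and cone genes (99.8) 99.68, 99.66 and 99.86, and of cone genes (92.1) 95.3, 95.3 and 94.2. With an array left out these percentiles were 99.742 to 99.758, 99.742 to 99.753 and 91.9 to 92.4.

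With an array left out, genes spanning more than 1 log2 unit numbered 9 to 50 and the median SD was 0.061 to 0.087; 2 arrays give a smaller range by construction. That count (59) was 22 for means above 8, 341 at 1.5-fold and 18 at 4-fold. Genes above the others in replicate 2 (35) numbered 92 at 1.5-fold and 16 at 4-fold, and genes below in replicate 3 (23) numbered 83 and 0. The 13141 genes above background ranged from 9373 to 15429 over the alternatives, including the second-highest control, which was chosen after seeing the data. Of 417 values of 41 other results, 329 stayed the same, 88 moved, and 0 reversed, which only signed differences could do. Counts were called the same within 1.5-fold of the main count, and other results within their spread.

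No paired analysis was possible because the results come from no test and from 1 group.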
